A study of Mus musculus with 33 samples.

Results

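The gene-rich flank downstream of Dad1 is the stretch of mouse chromosome 14 from 54255001 to 55300000 (mm10), which begins just beyond the Tcra–Tcrd locus and its neighbour Dad1. Its members were chosen by position alone and are 209 bins of 5 kb out of 24981 on the chromosome. Every read with the midpoint of at least 1 fragment in these bins was taken. Protein-coding genes of the GENCODE M21 annotation began in 35 of the 209 bins (16.7%), against 3.39% of the bins of the whole chromosome, so the label gene-rich holds for the bins used here. From the start of the flank the genes run in the order Abhd4, Oxa1l, Slc7a7, Mrpl52, Mmp14, Lrp10, Rem2, Prmt5, Haus4, Ajuba, Psmb5, Psmb11, Cdh24, Acin1 and Cebpe, and then from Slc7a8 through the cardiac myosin genes Myh6 and Myh7 to Ngdn, Zfhx2 and Jph4.

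The study asked how Eα and the EACBE, a CTCF-binding element just downstream of Eα, bring V and J genes together, using 3C-HTGTS, in which ligation products that start at a bait are amplified and sequenced. Each read counted here carried 2 MboI fragments of chromosome 14 beside the bait and so reported a three-way contact. The 33 libraries came from 6 baits. All mice were C57BL/6 and Rag1-/-. DP thymocytes were CBE+/+Rag1-/- (WT, 16 libraries) or CBE-/-Rag1-/- (EACBE-/-, 9 libraries), and their Rag1-/- thymi had been driven to the DP stage by 150 μg of anti-CD3 antibody given at 3 weeks of age, 10 days before collection. Liver cells were CBE+/+Rag1-/- (8 libraries), and treatment and age were not given for them. Contact libraries hold no marker levels against which a cell type could be checked. Rag1-/- mice do not recombine antigen receptor loci, so the germline order of the locus is intact, and the DP cells are a model made by antibody rather than by a rearranged receptor. Every group had 3 libraries of DP thymocytes or 2 of liver per bait, except for the second Eα bait with 1 library. Nothing in the labels says that the libraries came from separate mice, so p-values measure only the spread between libraries.

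Cohesin extrudes loops of chromatin until it meets CTCF, and contacts of a bait thin out with distance unless a boundary or a shared compartment alters that decay. Tcra–Tcrd holds V segments at its upstream end and J segments, Cα and Eα at its downstream end, with Dad1, a subunit of the oligosaccharyltransferase used in every cell, directly behind Eα. The genes of the flank include many that are used in most cells, such as the proteasome subunit Psmb5 and the arginine methyltransferase Prmt5, beside a few that belong to single tissues.

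The sequences that the results turn on are the MboI fragment missing from the EACBE-/- libraries, 4 fragments of the flank that were each the most captured in a leading bin from at least 1 bait, and a few CTCF core motifs along the flank. In the fragments the capitals mark the MboI site at which each begins. The missing fragment (chr14:54228261-54228414, plus strand of mm10) is intergenic, 25.8 kb downstream of the Dad1 start. It was read 419 to 855 times in the WT libraries of the Eα bait and 804 to 1136 times in those of TEAp. In those of Trav17–CBE2 it was read 103 to 602 times, and in all 9 EACBE-/- libraries 0 times. It was picked near Eα by its presence in each of these WT libraries and its absence from each EACBE-/- library. These counts therefore do not check the genotype labels.
Fragment missing from EACBE-/-: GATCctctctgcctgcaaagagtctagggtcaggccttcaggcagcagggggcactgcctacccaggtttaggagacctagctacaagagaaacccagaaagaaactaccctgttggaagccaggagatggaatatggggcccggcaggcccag
The 4 flank fragments are, in order, 0.517 kb upstream of the Mrpl52 start (chr14:54426352-54426432), 1.58 kb upstream of the Mmp14 start (chr14:54429913-54430158), in an intron of Mmp14 (chr14:54434549-54434684) and 1.92 kb upstream of the Prmt5 start (chr14:54519401-54519485).
Upstream of Mrpl52: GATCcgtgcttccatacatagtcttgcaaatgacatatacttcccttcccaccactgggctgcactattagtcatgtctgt
Upstream of Mmp14: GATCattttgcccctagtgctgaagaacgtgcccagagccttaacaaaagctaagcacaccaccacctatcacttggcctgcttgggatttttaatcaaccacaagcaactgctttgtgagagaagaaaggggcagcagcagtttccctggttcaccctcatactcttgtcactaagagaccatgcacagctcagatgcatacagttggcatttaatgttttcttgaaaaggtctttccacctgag
Intron of Mmp14: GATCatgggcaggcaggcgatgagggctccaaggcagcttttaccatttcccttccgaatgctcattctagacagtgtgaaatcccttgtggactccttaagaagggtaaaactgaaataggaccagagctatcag
Upstream of Prmt5: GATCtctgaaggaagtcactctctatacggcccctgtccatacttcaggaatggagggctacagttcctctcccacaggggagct

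CTCF binds DNA in an oriented way, and the 12-letter CTCF core consensus was searched on both strands. A match was found in 14 of 209 flank bins (6.7%) and in 506 of 24289 bins of chromosome 14 whose sequence is known (2.08%). Of the 14 matches 6 lay on the plus and 8 on the minus strand. A match is a string of letters and not a measured binding site. The first in the flank (22.9 kb from its start, chr14:54277897-54277926, minus strand, intergenic) and 3 further along (in introns of Acin1 and of 4930579G18Rik, 396 kb, chr14:54651277-54651306; 2.1 kb upstream of Cebpe, 459 kb, chr14:54714258-54714287; intergenic beyond Pabpn1, 646 kb, chr14:54900582-54900611; all on the plus strand) are shown in the direction of the motif, with the core in capitals.
CTCF core at 22.9 kb: gtgagtacaCCAGCAGAGGGCattggatcc
CTCF core at 396 kb: cccaaagccCCACTAGGTGGCgacaagtgc
CTCF core at 459 kb: cgctattagCCACTAGGTGGCaatattggt
CTCF core at 646 kb: ctcgcgtatCCACTAGGGGGCactaattgg

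The DP libraries held 14307 to 328127 reads with both fragments on chromosome 14, of which 2986 to 35957 had a flank fragment. In the DP libraries with fragment coordinates, which leave out those of INT2, each distinct pair of fragments was read 1.69 to 10.1 times, most often in WT replicate 3 of Trav17–CBE2, so reads are not independent molecules and counting intervals cover counting error only. Between any 2 of these libraries 1.53% to 9.96% of the distinct pairs of the smaller library were shared. The highest value was between baits, for EACBE-/- replicate 1 of Eα with EACBE-/- replicate 2 of TEAp. That Eα library shared 4.29% to 7.34% of its pairs with the other libraries of its own bait. Whether shared pairs bear on the bins that lead from several baits was not tested. Among reads with both fragments in the flank, the share with both in 1 bin was 66.1% in EACBE-/- replicate 1 of Eα and at most 57.5% in every other DP library. That library stood apart, and the partner shares that turn on it are given by library or without it.

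In DP WT thymocytes the flank was reached most often from Eα and least often from INT2. From the Eα bait, 28.4 kb from the start of the flank, 26.2%, 23.2% and 25.5% of chromosome 14 reads had a flank fragment in the 3 libraries (25% ± 1.59, SD, n = 3). From Trav17–CBE2, a CTCF site among the proximal V genes 450 kb away, the libraries gave 23.6%, 21.1% and 22.2% (22.3% ± 1.24, n = 3). TEAp, the promoter of the J array at 102 kb, gave 17.3%, 16.1% and 17.6% (17.0% ± 0.779, n = 3), and the Tcrd gene segment Trdd2 at 133 kb gave 16.7%, 15.6% and 16.8% (16.3% ± 0.673, n = 3). INT2, a CTCF site between the V region and Tcrd at 189 kb, gave 12.6%, 11.0% and 11.2% (11.6% ± 0.866, n = 3). In 71.7% of the INT2 flank reads the other fragment lay in the interval that holds that bait. How far this sets its share apart from those of the other baits was not tested.

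The order of the shares did not follow the order of the distances, since the farthest bait, Trav17–CBE2, had the second highest share. Of 10 pairs of baits, 8 did not overlap (two-sided exact permutation test, p = 0.1, the smallest that 3 against 3 libraries allow; 0.125 after Benjamini-Hochberg adjustment over 10 pairs). Eα and Trav17–CBE2 overlapped (difference 2.66 percentage points, exact p = 0.2), as did TEAp and Trdd2 (0.68 points, exact p = 0.4). The 1 library of the second Eα bait, whose fragment adjoins that of the first, had 23419 of 111802 reads in the flank, or 20.9% (95% exact binomial interval 20.7% to 21.2%).

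**Figure D1:**
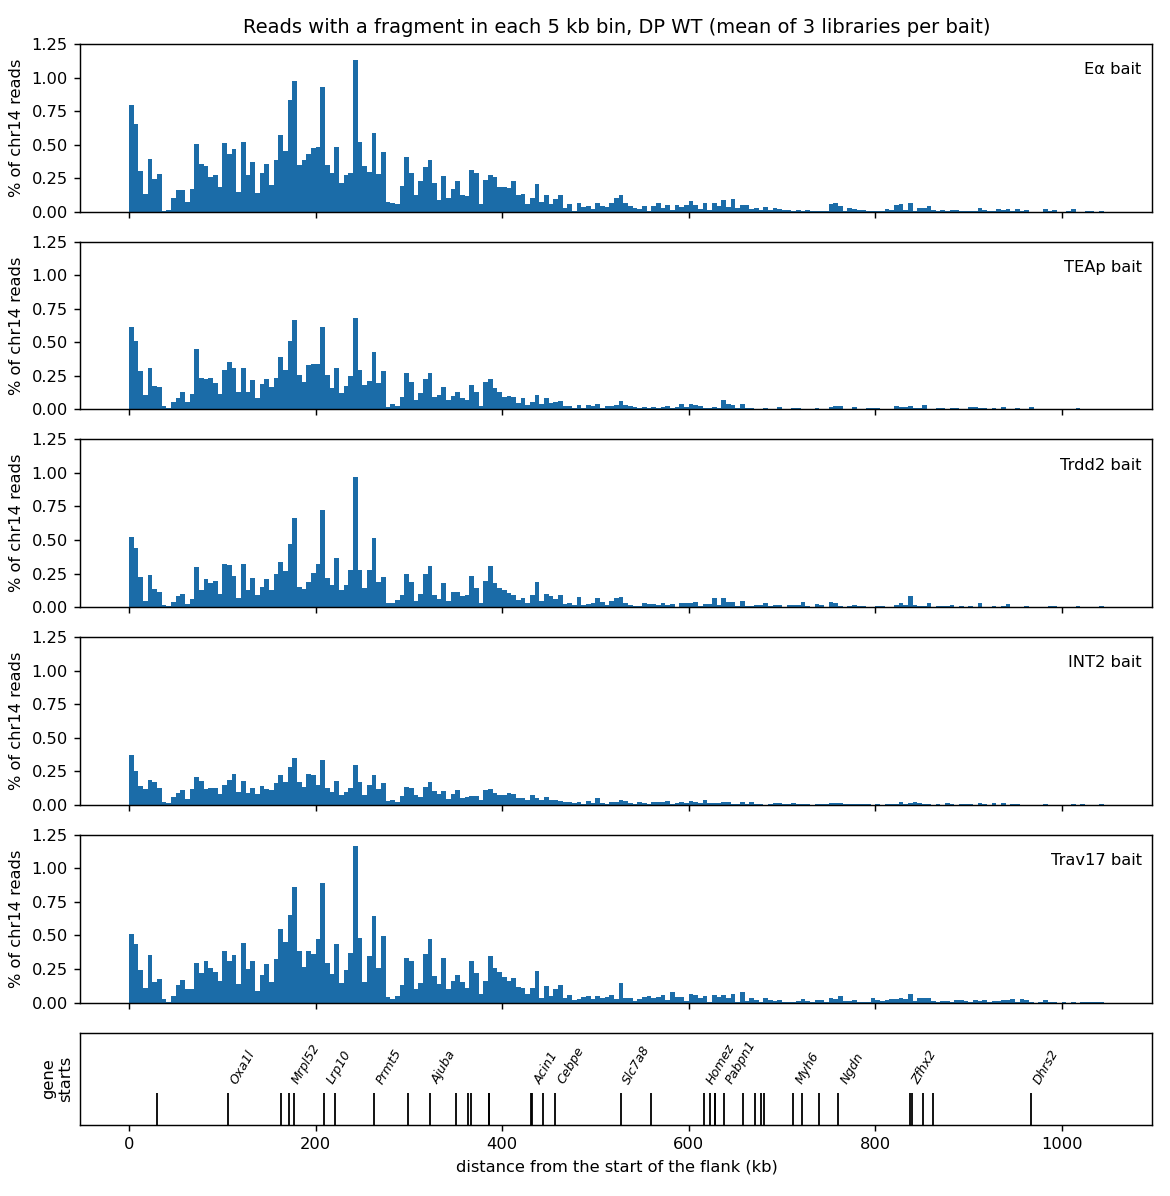
Mean percent of chromosome 14 reads with a fragment in each 5 kb bin of the flank (vertical axes) against the distance from the start of the flank in kb (horizontal axis) for 5 baits in DP WT thymocytes, 3 libraries each, with the starts of protein-coding genes as ticks below. The 5 profiles rise and dip at the same places, with the highest bins between 170 and 265 kb and beside Abhd4, and fall off after about 450 kb.

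Contacts did not decline steadily from the start of the flank. In 50 kb windows, the highest values from every bait with 3 libraries were in the 4th and the 5th window, 150 to 250 kb into the flank, which hold Mrpl52, the membrane-anchored metalloproteinase Mmp14, the lipoprotein receptor family gene Lrp10 and the small GTPase Rem2. From Eα, window 4 held 4.52% ± 0.222 and window 5 held 4.58% ± 0.254 of reads (n = 3), against 2.74% in window 1. From TEAp the values were 3.08% and 3.04%, from Trdd2 2.57% and 3.35%, from Trav17–CBE2 3.96% and 4.35%, and from INT2 1.97% and 1.62%.

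A second feature shared by the baits was a step down near 450 kb, between Acin1, a splicing and chromatin condensation factor, and Cebpe, a transcription factor of granulocytes. From window 9 to window 10 the mean share went from 1.35% to 0.488% for Eα, from 0.718% to 0.32% for TEAp, from 0.848% to 0.445% for Trdd2, from 0.581% to 0.221% for INT2 and from 1.28% to 0.504% for Trav17–CBE2. The first 440 kb of the flank held 87.7% to 90.6% of the sum over bins in the WT groups with 3 libraries. The 20th window, with the dehydrogenase gene Dhrs2, held 0.0121% to 0.0762%.

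The profile was also uneven at the level of single bins, and nearly the same bins led from every bait. The bin 240 to 245 kb into the flank was the highest from 4 of 5 baits. It held 1.10%, 1.14% and 1.14% of reads from Eα and 1.34%, 1.07% and 1.10% from Trav17–CBE2. The TEAp mean was 0.684%, the Trdd2 mean 0.967% and the INT2 mean 0.299%. From Eα its level was 19.6 times the median flank bin.

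The bin from 54430001 to 54435000, with the start of Mmp14, was among the 5 highest from all 5 baits. From Eα it held 0.859%, 1.04% and 1.03%. The bin from 54460001 to 54465000, with the start of Lrp10, was too, with 0.943%, 0.85% and 1.00% from Eα and 0.976%, 1.07% and 0.639% from Trav17–CBE2. Next came the bins of Mrpl52, a protein of the mitochondrial ribosome, and Abhd4, a lipid hydrolase, each among the 5 highest from 4 baits (0.836% and 0.793% from Eα), and that of Prmt5 from 2 baits (0.643% from Trav17–CBE2). None of these 6 bins held a CTCF core match. No single fragment made up a bin, since the most captured fragment, including those printed for Mrpl52, Mmp14 and Prmt5, gave 11.2% to 21.5% of the fragments of its bin.

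Low bins were shared as well. From Eα, the bins centred 37.5 and 42.5 kb into the flank held 0.00345% and 0.012%, and from Trav17–CBE2 0.0299% and 0.00194%, while the bin before them held 0.278% and 0.177%. A second dip lay between 275 and 290 kb, reaching into Haus4, an augmin subunit, with 0.0601% to 0.0684% per bin from Eα after 0.445% in the bin before. How well fragments of these bins can be aligned was not tested. Across the 209 bins the level had a Spearman correlation of 0.102 to 0.183 with the number of MboI sites and of -0.0575 to 0.0425 with GC content in the groups of DP thymocytes, given as a description, since bins share libraries and their distance from the bait.

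Bins with the start of a coding gene had a higher median level than the others, with no allowance for their place along the flank. From Eα their median was 0.0893% (35 bins) against 0.0498% for the 174 bins without one in this annotation, from TEAp 0.0567% against 0.0269% and from Trav17–CBE2 0.0819% against 0.0392%. Of 32 listed genes, 30 begin in the flank, Abhd4 begins 0.812 kb before it and 1 is not analysed here. The 11 broadly used genes had a median of 0.099% from Eα, and 9 of them lay above the flank median of 0.0575%. The 10 genes used in few tissues had a median of 0.0447%, with 4 of them above. The 9 genes in neither list, among them Slc7a7, Mmp14, Lrp10 and Cdh24, had the highest median, 0.272%, with 7 of them above. The medians of the broad, the restricted and the remaining genes were 0.0676%, 0.0176% and 0.223% from TEAp and 0.111%, 0.0493% and 0.35% from Trav17–CBE2. The lists also differ in place, as most of the genes used in few tissues lie beyond 450 kb, and position was not separated from use. The 14 bins with a CTCF core match had a median of 0.0784% from Eα, against 0.0555% for the rest. From TEAp the medians were 0.0305% and 0.0273%. Place along the flank was not allowed for here either.

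Without the EACBE, the share of reads in the flank went in opposite directions from different baits. From Eα it was lower, at 20.9%, 21.6% and 21.3% (21.3% ± 0.372, n = 3), a difference of -3.7 percentage points from WT. From TEAp it was higher, at 22.1%, 21.9% and 20.6% (21.5% ± 0.802, n = 3; +4.53 points). From Trav17–CBE2 it was higher too, at 25.9%, 27.5% and 26.0% (26.5% ± 0.877, n = 3; +4.14 points). Genotypes did not overlap for any of the 3 baits (exact permutation p = 0.1 each, the smallest possible, and 0.1 after adjustment).

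The difference between baits was set against exact permutation of the genotype labels within each bait. That null has no genotype effect in either bait, so equal effects in both baits were not tested. The log2 ratio of EACBE-/- to WT shares was -0.23 for Eα, 0.34 for TEAp and 0.25 for Trav17–CBE2. The ratio of Eα was lower than that of TEAp by 0.57 and than that of Trav17–CBE2 by 0.48 (exact permutation p = 0.005 each, the smallest possible; 0.0075 after adjustment over 3 pairs). TEAp and Trav17–CBE2 differed by 0.09 (exact permutation p = 0.65). The Eα bait fragment, from 54225987 to 54227254, lies outside the missing fragment.

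**Figure D2:**
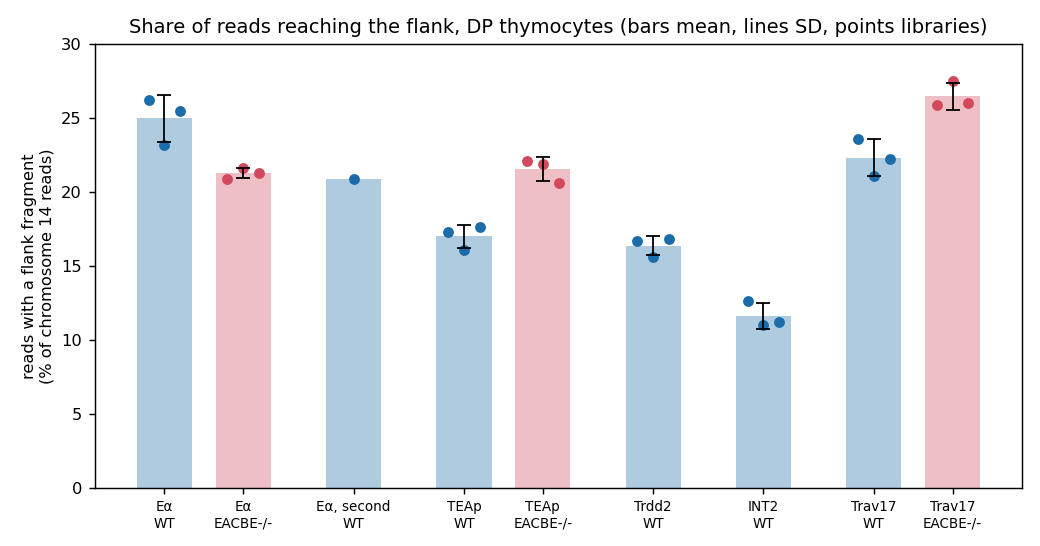
Percent of chromosome 14 reads with a flank fragment (vertical axis) in each DP library, by bait and genotype, with bars for means, lines for SDs and points for libraries; the second Eα bait has 1 library. The EACBE-/- points lie below WT for Eα and above WT for TEAp and Trav17.

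The opposite shares came with a common shift toward the start of the flank. In the first 45 kb, the part that the maps of the locus cover (53740001 to 54300000), the share of map reads was higher in EACBE-/- cells from all 3 baits. It was 5.17% ± 0.549 against 3.17% ± 0.397 from Eα, 4.68% ± 0.257 against 2.32% ± 0.1 from TEAp and 4.52% ± 0.224 against 2.54% ± 0.553 from Trav17–CBE2 (n = 3 each; exact permutation p = 0.1 each). No groups overlapped.

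The decay across the flank was steeper in EACBE-/- cells. The slope of log2 share per 50 kb window on log2 distance from the bait was -1.43, -1.48 and -1.46 in the WT libraries of Eα and -1.91, -1.66 and -1.78 in the EACBE-/- libraries. The mean slope was -2.16 against -2.84 from TEAp and -3.58 against -4.23 from Trav17–CBE2 (exact permutation p = 0.1 for each bait, with no overlap). Slopes are not comparable between baits, because the flank spans a different range of log distance from each. The point that divides the sum over flank bins evenly moved from 211 to 171 kb from Eα, from 202 to 159 kb from TEAp and from 229 to 202 kb from Trav17–CBE2. The 20 highest bins held 40.8% of the sum in WT and 49.2% in EACBE-/- cells from Eα, 42.8% and 52.5% from TEAp, and 41.3% and 42.8% from Trav17–CBE2.

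Which part of the flank gained and which lost can be read from 50 kb windows, tested with edgeR (quasi-likelihood test, Benjamini-Hochberg adjustment over all windows of the chromosome, threshold 0.05). From Eα, 1 of 20 windows rose (background 0.328% of all windows tested) and 5 fell (background 1.31%). The first window, with Abhd4, held 3.08%, 2.47% and 2.67% in WT and 3.72%, 4.25% and 4.28% in EACBE-/- libraries (log2 fold change 0.57 ± 0.12, SE; adjusted p = 0.000353). The 5 that fell are windows 5 to 9 in a row, from Lrp10 through Prmt5, Haus4, Ajuba and the proteasome genes Psmb5 and Psmb11 to Acin1. Window 8, with Psmb5, Psmb11 and the cadherin Cdh24, held 2.01%, 1.66% and 1.81% in WT and 0.706%, 1.04% and 0.899% in EACBE-/- libraries (-1.05 ± 0.20; adjusted p = 4.82e-05). The other 4 had log2 fold changes of -0.66, -0.73, -0.83 and -1.03.

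From TEAp, 4 windows rose (background 0.442%) and 1 fell (background 0.589%). The 4 that rose are the first 4, with log2 fold changes of 0.93, 1.07, 0.73 and 0.59. The largest change among these was in window 2, which holds no coding gene and lies before Oxa1l, the mitochondrial insertase. Its WT libraries held 1.80%, 1.60% and 1.96% and EACBE-/- libraries 3.80%, 3.82% and 3.66% (1.07 ± 0.09; adjusted p = 2.49e-29). Window 5, with Lrp10, held 3.04% in both genotypes. Window 8 fell, from 1.24% to 0.795% (-0.64 ± 0.15; adjusted p = 0.0029).

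From Trav17–CBE2, 2 windows rose (background 0.174%) and 0 fell (background 0.348%), by edgeR. The first window held 2.38%, 1.59% and 1.91% in WT and 3.05%, 2.86% and 3.09% in EACBE-/- libraries (0.61 ± 0.12; adjusted p = 0.000226). The third, with Oxa1l and the amino acid transporter Slc7a7, held 2.59%, 2.25% and 2.80% against 3.69%, 3.87% and 4.15% (0.61 ± 0.11; adjusted p = 4.78e-06). At an unadjusted p under 0.05, 7 of the 20 windows passed (background 5.83%). DESeq2 called 4 of the 18 windows that it gave an adjusted p, of which 2 were lower (background 19% of such windows).

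These folds are shares of chromosome 14 reads and move with the scaling. TMM shifted the median of all windows by -0.12 for Eα, -0.08 for TEAp and -0.17 for Trav17–CBE2 on the log2 scale. Under TMM the 5 lower Eα windows and all 5 TEAp windows kept their calls, while the first Eα window (0.44, adjusted p = 0.305) and both Trav17–CBE2 windows (0.45 each, adjusted p = 0.223 and 0.114) lost theirs in the edgeR fit. Relative to that scaling, the gain at the start of the flank was called from TEAp and not from Eα or Trav17–CBE2.

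**Figure D3:**
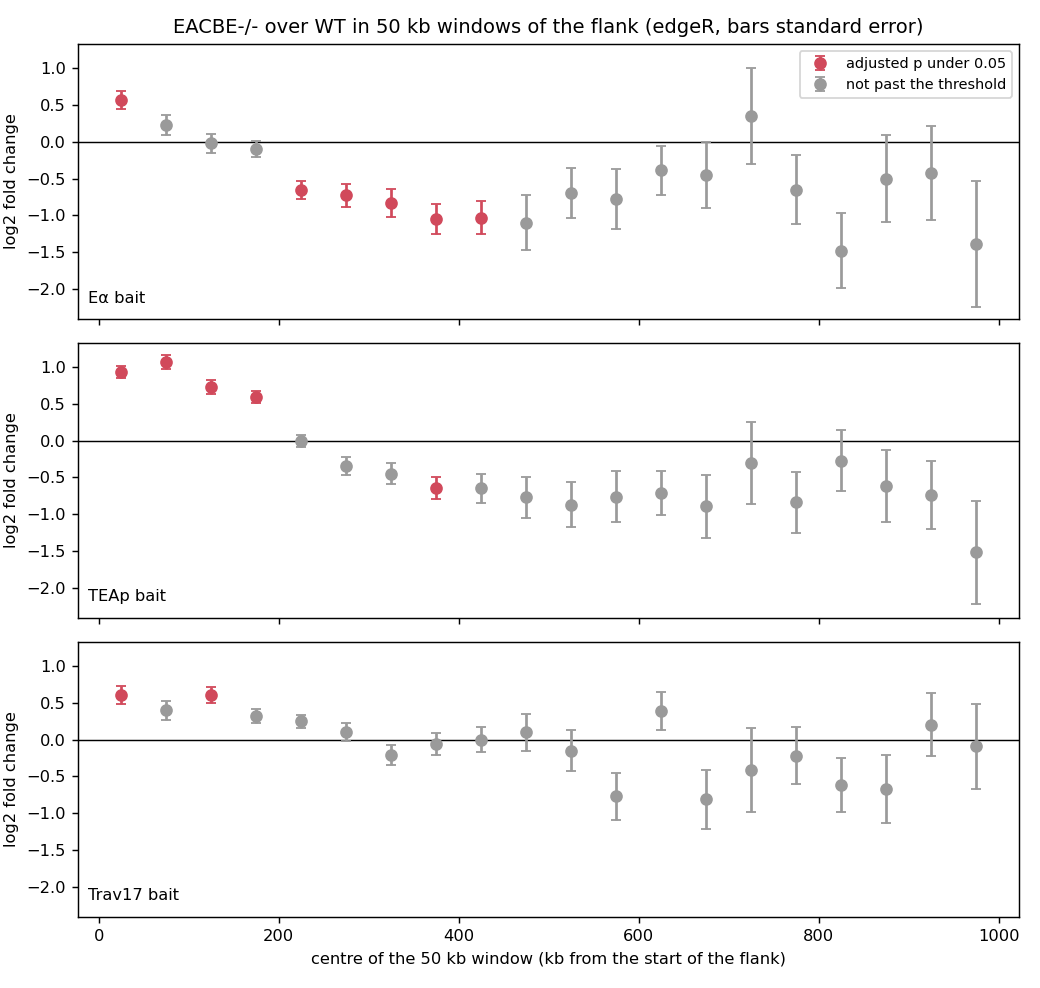
Log2 fold change of EACBE-/- over WT with its standard error (vertical axes) for each 50 kb window by its distance from the start of the flank in kb (horizontal axis), for 3 baits; red points have an adjusted p under 0.05 by edgeR. Values are above 0 at the start of the flank for each bait, and lie below 0 in windows 3 to 14 for Eα and from window 6 on for TEAp, while 9 of 20 Trav17 values lie above 0.

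Summed over 3 segments, set after the windows were seen and given as a description, the first 200 kb went from 12.2% to 13.7% of reads for Eα, from 8.77% to 15.2% for TEAp and from 9.94% to 13.6% for Trav17–CBE2. From 200 to 450 kb the shares went from 11.6% to 6.76%, from 7.54% to 6.23% and from 11.1% to 11.7%. From 450 kb to the end they went from 2.87% to 1.81%, from 1.62% to 0.951% and from 2.7% to 2.41%. The lower total from Eα lay in the middle and far segments, and the higher totals from the other baits in the first.

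In single bins, calls from TEAp were the most numerous when reads were counted. With edgeR over all bins of the chromosome, 22 of 193 tested flank bins rose (background 0.899%) and 2 fell (background 0.651%) from TEAp. All 22 lay in the first 200 kb. The bin from 54285001 held 0.171%, 0.136% and 0.191% in WT and 0.471%, 0.379% and 0.499% in EACBE-/- libraries (log2 fold change 1.43 ± 0.20; adjusted p = 1.15e-09). The bin from 54335001 went from 0.228% to 0.512% (1.16 ± 0.19; adjusted p = 2.00e-07) and that from 54305001 from 0.086% to 0.207% (1.27 ± 0.31; adjusted p = 0.00504).

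These 3 bins lie between Olfr49, an olfactory receptor gene, and Oxa1l, a stretch with no coding gene. The 2 bins that fell adjoin each other at Cdh24 and the 3′ end of Acin1. The bin from 54640001 held 0.193%, 0.239% and 0.237% in WT and 0.0804%, 0.0961% and 0.0533% in EACBE-/- libraries (-1.53 ± 0.31; adjusted p = 0.00011 by edgeR). The bin from 54635001 went from 0.201% to 0.0887% (-1.17 ± 0.32; adjusted p = 0.016). Without EACBE-/- replicate 2 of TEAp, 15 bins were called, 14 higher and 1 lower, a fit for which no background share is given.

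From Eα, 1 of 192 tested bins rose (background 0.481%) and 1 fell (background 0.385%), both near the background share. The bin 240 to 245 kb into the flank, the highest in WT, went from 1.13% to 0.621%, with EACBE-/- libraries at 0.552%, 0.663% and 0.649% (-0.86 ± 0.20; adjusted p = 0.00383 by edgeR). The bin from 54260001, within Abhd4, held 0.654%, 0.605% and 0.703% in WT and 1.27%, 0.972% and 0.983% in EACBE-/- libraries (0.71 ± 0.20; adjusted p = 0.0426). TMM called 1 bin, which was higher (background 0.722%), and DESeq2 called 4 of the 111 that it gave an adjusted p, all higher (background 8.65% of such bins). With each distinct fragment pair counted once, edgeR called 19 of 163 (background 6.96%), 4 higher and 15 lower. The calls in single bins from this bait thus differed with the tool and with the counting of repeated reads. Leaving out 1 library at a time gave 0 to 5 calls, with 0 without WT replicate 3, 1 without WT replicate 2 or EACBE-/- replicate 2, 4 without EACBE-/- replicate 3 and 5, all lower, without EACBE-/- replicate 1. No background share is given for these fits. From Trav17–CBE2 edgeR called 0 of 196 tested bins (background 0.0663% in either direction), with 26 at an unadjusted p under 0.05 (background 5.9%), and DESeq2 called 7 of the 125 that it gave an adjusted p (background 9.79% of such bins). From that bait the bin 240 to 245 kb into the flank held 1.17% in WT and 1.41% in EACBE-/- cells, and from TEAp 0.684% and 0.708%.

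The flank was also set against an interval of the same length at the same distances on the other side of each bait, a ratio that does not depend on library totals. From Eα the mirror interval lies upstream, across V and J segments, and the log2 ratio of flank to mirror reads was -1.32 ± 0.10 in WT and -1.43 ± 0.01 in EACBE-/- cells (n = 3; exact permutation p = 0.3, overlapping). From TEAp it was -1.13 ± 0.04 in WT and -0.46 ± 0.02 in EACBE-/- cells (n = 3; exact permutation p = 0.1, no overlap, 0.3 after adjustment). From Trav17–CBE2, whose mirror lies farther upstream, it was 4.01 ± 0.23 and 4.13 ± 0.24 (n = 3; exact permutation p = 0.6).

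The partner of a flank fragment was most often another flank fragment from every bait but INT2. In DP WT cells both fragments lay in the flank in 39.8% ± 1.22 of flank reads from Eα, 33.3% ± 1.48 from TEAp, 39.3% ± 3.86 from Trdd2 and 38.8% ± 0.987 from Trav17–CBE2 (n = 3 each), and in 39.7% of those from the second Eα bait. INT2 differed, with 11.3% ± 0.954 in the flank and 71.7% ± 2.6 in the INT interval (54055001 to 54070000) that holds the bait itself. Of the pairs within the flank, 37% to 56% in the WT libraries of Eα, TEAp, INT2 and Trav17–CBE2 fell in 1 bin and 18.3% to 31.3% spanned over 50 kb.

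Outside the flank, the proximal V region was the most frequent partner from Trav17–CBE2, TEAp and Eα. The proximal V region (53740001 to 54055000) took 34.2% ± 0.321 of flank reads from Trav17–CBE2, whose bait it holds. It took 18.2% ± 0.306 from TEAp and 14.1% ± 1.97 from Eα. From Eα the distal J segments took 10.7% ± 0.649, and the interval of Cα and Eα, which holds that bait, took 8.86% ± 0.83. From TEAp the Tcrd interval took 11.8% ± 0.404, the INT interval 10.0% ± 0.294 and the proximal J interval, which holds that bait, 2.65% ± 0.223. From Trdd2 the Tcrd interval, which holds that bait, took 19.5% ± 2.21.

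Between genotypes 11 of 30 partner shares did not overlap, each with an exact permutation p of 0.1 and 0.273 after adjustment over 30 shares. Cα and Eα as partners were lower from all 3 baits, going from 8.86% to 6.14% for Eα, from 4.11% to 1.53% for TEAp and from 1.34% to 0.645% for Trav17–CBE2. This interval contains the missing fragment, which alone was the partner in 1.71% ± 0.877, 1.57% ± 0.541 and 0.349% ± 0.0926 of WT flank reads. Without that fragment the WT values were 7.15% ± 0.269, 2.53% ± 0.834 and 0.99% ± 0.246, against the 6.14% ± 1.45, 1.53% ± 0.0733 and 0.645% ± 0.208 of EACBE-/- cells, and the Eα and Trav17–CBE2 libraries then overlapped. The EACBE-/- libraries of Eα were at 4.69%, 7.59% and 6.12%, the lowest being replicate 1.

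The Dad1 interval (54230001 to 54255000), between the EACBE and the flank, was higher as a partner from Eα (5.07% to 7.3%) and TEAp (4.98% to 7.6%), with no overlap. From Trav17–CBE2 it was 2.87% and 2.32%, with overlap. The region beyond the flank was lower from Eα (5.67% to 4.35%), TEAp (3.8% to 3.19%) and Trav17–CBE2 (6.22% to 5.55%). Pairs within the flank were higher from Trav17–CBE2 (38.8% to 42.1%). From Eα they were 39.8% and 40.6%, and without EACBE-/- replicate 1, the library that stood apart, the difference was -2.83 points. The proximal V share from Eα was 14.4%, 12% and 15.9% in WT and 10.0%, 15.6% and 15.4% in EACBE-/- libraries, and without EACBE-/- replicate 1 the difference turned from -0.397 to 1.41 points. That share was 18.2% and 18.4% from TEAp and 34.2% and 33.4% from Trav17–CBE2, and the genotypes overlapped from each of the 3 baits.

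**Figure D4:**
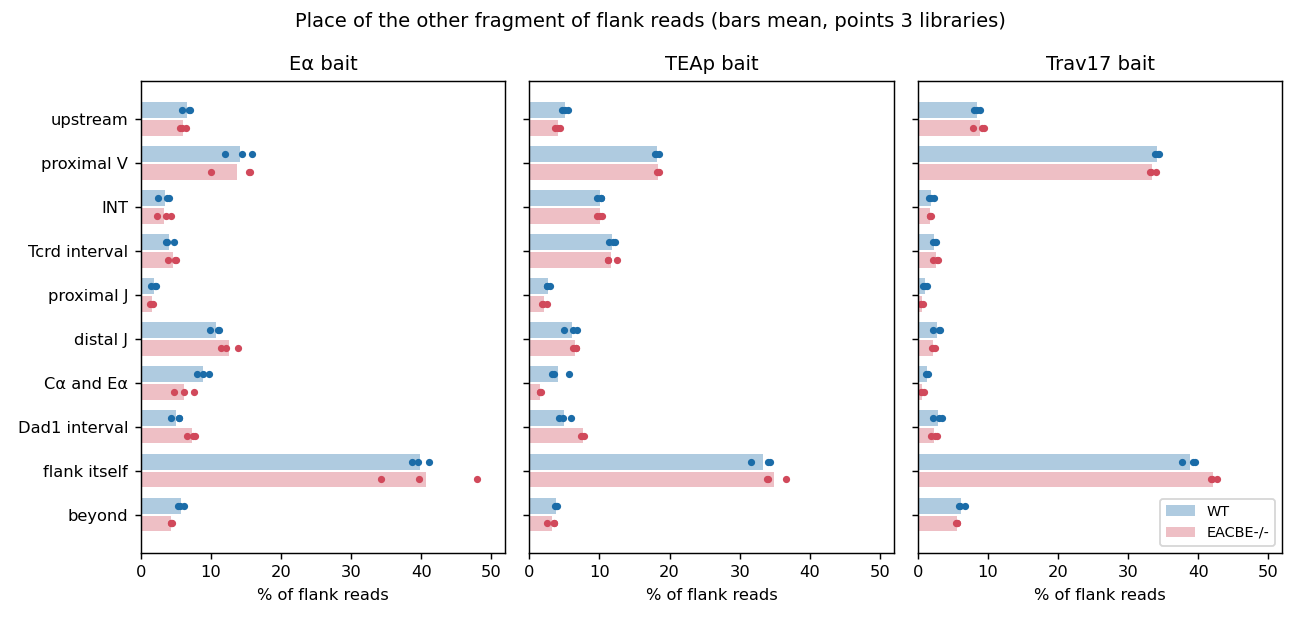
Percent of flank reads (horizontal axes) whose other fragment lay in each of 10 intervals of chromosome 14 (vertical axis, in genomic order), for 3 baits, with bars for the means and points for the 3 libraries of WT and of EACBE-/- cells. The flank itself is the most frequent partner, and bars of Cα and Eα are shorter in EACBE-/- cells.

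The shift toward the start of the flank was present in the means for every class of partner on the upstream side of the flank. Reads with both fragments in the flank, or with a partner beyond it, were left out here. Among reads with 1 flank fragment and a partner on the V side, the flank fragment lay in the first 200 kb in 47%, 45.5% and 42% of WT and 63.3%, 65.5% and 66.7% of EACBE-/- reads from Eα. With a partner among the J segments the means were 45.9% and 60.5%, and with one in Cα, Eα or Dad1 51.8% and 65%. From TEAp the V side gave 47% and 66.4% and the J segments 52% and 69.7%. From Trav17–CBE2 the V side, which holds that bait, gave 42.5% ± 1.49 and 47.3% ± 1.22, the INT and Tcrd intervals 43.4% ± 8.01 and 62.1% ± 9.37, and the J segments 45.7% ± 4.38 and 64.8% ± 7.73 (n = 3 each). In all 12 combinations of bait and partner the EACBE-/- mean was higher, and the libraries of the genotypes overlapped in 2 of them (Eα with the INT and Tcrd intervals, and Trav17–CBE2 with Cα, Eα and Dad1). These are descriptions, with no test.

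Liver cells, in which the locus is not used, were compared with DP WT thymocytes over the span that every count table covers (53035001 to 55030000, with 155 of the 209 flank bins). The liver libraries held 994 to 34299 counts in all, so 3 counts came to between 0.00875% and 0.322% of a library. The flank share of Eα was 69.0% ± 4.19 in liver (n = 2) and 27.4% ± 1.78 in DP cells (n = 3), and that of TEAp 31.5% ± 0.876 and 18.0% ± 0.841. From Trav17–CBE2 the order was the opposite, with 16.0% ± 0.7 in liver and 25.1% ± 1.72 in DP cells. For these 3 baits the cell types did not overlap (exact permutation p = 0.1, the smallest that 3 against 2 libraries allow; 0.133 after adjustment over 4 baits). From INT2 the shares were 13.7% ± 0.358 and 12.4% ± 0.95 and overlapped (exact permutation p = 0.3).

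The difference between baits was set against permutation of the cell type labels within each bait, added after these values were seen. That null has no cell type effect in either bait, so equal effects in both baits were not tested. The log2 ratio of DP to liver was -1.33 for Eα, -0.81 for TEAp, -0.15 for INT2 and 0.65 for Trav17–CBE2. Trav17–CBE2 differed from Eα by a log2 difference of 1.98 and from TEAp by 1.46 (exact permutation p = 0.01 each, 0.03 after adjustment over 6 pairs) and from INT2 by 0.80 (exact permutation p = 0.02, adjusted 0.04). The other 3 pairs had exact permutation p-values of 0.12 to 0.54. In the first 45 kb of the flank, Eα gave 14.9% of map counts in liver and 3.16% in DP cells, and TEAp 4.02% and 2.31% (exact permutation p = 0.1 each), while Trav17–CBE2 gave 2.89% and 2.54% and INT2 1.73% and 1.59%, with overlap.

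In liver the Eα contacts with the flank were highest in window 4, with Mrpl52 and Mmp14, which held 15.3% of counts (14.2% and 16.3%). In DP cells windows 4 and 5 held nearly equal means of 5.27% and 5.21% of counts. After window 5 the liver value dropped from 11.3% to 3.47%. From Trav17–CBE2 window 5 was the highest in both, at 2.45% in liver and 5.17% in DP cells. Far along the flank, in window 15 at Myh6 and Myh7, the mean was higher in liver than in DP cells from each bait. That window held 0.436% from INT2 and 2.36% (1.08% and 3.63%) from TEAp in liver, against 0.0503% and 0.0429% in DP cells. From Eα it held 0.763% (0.481% and 1.04%) in liver and 0.0903% in DP cells. From Trav17–CBE2 it held 0.685% in liver, with libraries at 0% and 1.37%, and 0.0989% in DP cells. Bins beyond 470 kb made up 21.4% and 22% of the flank sum from INT2 in liver against 6.72% to 7.31% in DP cells, and 16.1% and 25.8% against 5.2% to 5.53% from TEAp. From Eα the shares were closer, at 10.7% and 12.7% against 5.84% to 8.43%, and from Trav17–CBE2 the liver libraries differed from each other, at 33.3% and 13.3% against 6.61% to 7.58%.

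**Figure D5:**
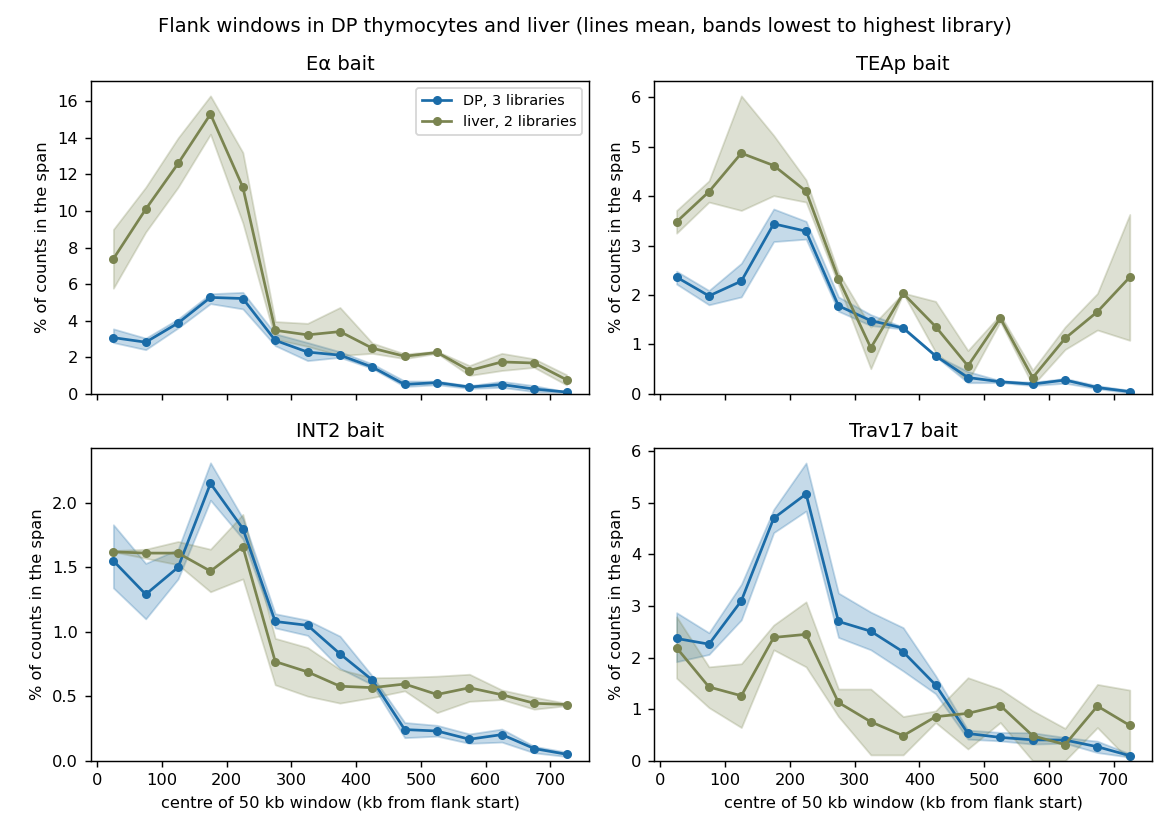
Percent of counts of the common span in each 50 kb window of the flank (vertical axes, a different range in each panel) against distance from the start of the flank in kb, for 4 baits in DP thymocytes (3 libraries) and liver (2 libraries); lines are means and bands run from the lowest to the highest library. The liver mean lies above the DP mean for Eα in all 15 windows and below it for Trav17 in windows 1 to 9.

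Single bins were compared with edgeR (quasi-likelihood test, Benjamini-Hochberg adjustment over all bins of the span). From Eα, 2 of 148 tested flank bins were higher in DP cells (background 26.7%) and 48 were lower (background 15.8%). From TEAp, 1 of 154 was higher (background 12.5%) and 29 were lower (background 10.7%). From Trav17–CBE2, 10 of 150 were higher (background 10.5%) and 9 lower (background 5.42%). From INT2, 7 of 155 were higher (background 20.2%) and 14 lower (background 5.57%). These counts and backgrounds include bins that passed the filter on low counts through a single cell type, among them Trav17–CBE2 bins with 0 liver counts. They are therefore no test of such bins. The split into higher and lower bins depends on the scaling. TMM, which moved the median of all bins by 0.63, 0.42, 0.15 and -0.18 on the log2 scale for these 4 baits, gave 6 higher and 27 lower, 5 and 20, 12 and 9, and 5 and 19. DESeq2 gave 2 and 32, 3 and 34, 13 and 11, and 3 and 26. Single libraries moved the counts as well. From TEAp 12, 4 and 18 bins were called without DP replicates 1, 2 and 3 and 57 without liver replicate 2, from Trav17–CBE2 9, 0, 9 and 35 in the same order, and from INT2 1 without DP replicate 1 and 13 without DP replicate 3. Background shares are not given for these TMM, DESeq2 and left-out-library counts. The counts show only how far the calls moved, and do not set the flank apart from the rest of the span.

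The bins lower in DP cells with the largest changes lay far along the flank and rested on few liver counts, in some bins on 1 of the 2 liver libraries. From Eα the bin from 54910001 at Slc22a17 held 0.107%, 0.0606% and 0% in DP libraries and 0.953% and 0.674% in liver, from 21 and 7 counts (-3.80 ± 0.85; adjusted p = 0.00242 by edgeR). From INT2 the bin from 54980001 in Myh7, the slow cardiac myosin heavy chain, held 0.00375% to 0.00654% in DP libraries and 0.0729% and 0.149% in liver, from 25 and 22 counts (-4.35 ± 0.79; adjusted p = 0.000596). The other named bins were less even. From Eα the bin from 54750001 in Slc7a8, an amino acid transporter, held 0.026% to 0.0304% in DP libraries and 0.0908% and 0.962% in liver, from 2 and 10 counts. From TEAp the bin from 54985001 in Myh7 had 1 DP count in all and 2 and 20 counts in the liver libraries (0.0416% and 1.69%). From INT2 the bin from 54935001, with the cytokine gene Il25 and Cmtm5, had 7 DP counts in all and 26 and 1 counts in the liver libraries (0.0758% and 0.00678%). The last 2 bins passed the filter on low counts through liver alone, so their test is not given.

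From Trav17–CBE2, 6.67% of the tested flank bins were higher in DP cells, below the background of 10.5%, and 6% were lower, near the background of 5.42%, so these counts do not set the flank apart from the rest of the span. The 10 higher bins lay between 170 and 390 kb. The 5 with the largest changes had 0 liver counts, so only a lower bound can be given, against 3 counts over both liver libraries (0.112%). The bin from 54455001 was at least 5.01-fold higher in DP cells, that of Ajuba, a LIM domain protein, at least 4.8-fold, that of Lrp10 (54465001) at least 4.52-fold, that of Prmt5 (54510001) at least 3.32-fold and that of Cdh24 and Acin1 (54640001) at least 3.28-fold, with DP libraries at 0.242% to 0.705% over the 5 bins. These bins passed the filter on low counts through DP cells alone, so their test is not given. Without DP replicate 2 of Trav17–CBE2 edgeR called 0 bins, with 38 of 149 at an unadjusted p under 0.05 (background 23%). Of the 9 bins that were lower in DP cells from this bait, all beyond 455 kb, 3 did not overlap between cell types.

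From Eα, TEAp and Trav17–CBE2, liver flank reads paired within the flank more often than DP ones. From Eα 79% and 84% of flank counts had both bins in the flank in liver, against 43.4% to 45.1% in DP cells, and the proximal V region took 0.946% and 0.583%, against 13.5% to 18.2%. From TEAp the flank took 61.3% and 69% against 34.2% to 36.7%. From Trav17–CBE2 it took 82% and 75.3% against 42.6% to 43.7%, and the proximal V region, which holds that bait, took 12.5% and 14.3% against 38.1% to 39.1%. INT2 went the other way, with 5.66% and 5.15% in liver and 10.4% to 12.1% in DP cells. In the liver libraries of Eα 47.9% and 61.2% of flank counts lay within 1 bin, against 16.7% to 23.3% in DP cells, and 13 and 53 of 155 flank bins had no count. From Trav17–CBE2, whose liver libraries had 272 and 154 flank counts, 93 and 115 bins had none. With pairs within a bin left out, the difference in flank share, DP minus liver, was -46.8 points from Eα and -19.8 from TEAp. It was -4.51 points from INT2 and 8.26 from Trav17–CBE2. The part of depth in these differences was not tested.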

How the data were processed

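3C-HTGTS libraries were made from cells fixed with 1% formaldehyde, lysed and digested with 200 units of MboI, by linear amplification from a biotinylated primer at the bait. The authors trimmed reads (fastp 0.20.0, cutadapt 1.18), split them at MboI sites, aligned the parts to mm10 (Bowtie2 2.4.5), removed self-ligated, off-target and continuous fragments, and kept the first 2 fragments after the bait. For DP thymocytes, other than from INT2, they deposited the coordinates of both fragments of each read. For most DP libraries and all liver libraries they deposited counts of reads per pair of 5 kb bins, not normalized. In 19 libraries all 84131 bin pairs of the count tables equalled the binned reads. Tables scaled by the authors were not used.

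A read counted toward the flank if a fragment midpoint lay in it. Shares are percentages of reads with both fragments on chromosome 14, and liver was compared through the count tables over the span that all of them cover. Groups followed the labels. Shares, slopes (pseudocount 0.5 reads), partner shares and mirror ratios were compared by two-sided exact permutation tests. Bins (at least 10 reads summed) and 50 kb windows were tested on counts by the quasi-likelihood test of edgeR 4.0.16 (library sizes were chromosome 14 reads or counts in the span, with no further factor; Benjamini-Hochberg threshold 0.05). The bins named are the 5 highest per bait in DP WT cells and, per comparison, up to 5 called bins without overlap between groups that had the largest absolute fold changes. The members, gene lists and tests were chosen with earlier results of these data known. On simulated data with features changed by 2 on the log2 scale, edgeR recovered 28.9% to 36.2% of changed flank bins between genotypes. It recovered 40% to 80% of changed flank windows, of which there were only 5 per bait. Between cell types it recovered 17.6% to 60.5% of changed flank bins. Over all changed features, in and out of the flank, recovery was 7.51% to 16.2% between genotypes and 30.8% to 59.3% between cell types. With each, 0 were called in the wrong direction. Alternatives were TMM, DESeq2 1.42.0, no filter, distinct fragment pairs, pairs within a bin left out, other windows, a 25 kb exclusion around the bait, the replicate block and each library left out. The first fragment alone was not analysed, because the fragments of a read are listed by position and not by their order after the bait. Depth per library ranged from 14307 to 328127 reads in DP thymocytes and from 994 to 34299 counts in liver. Genes and sequences were taken from mm10 with GENCODE M21, and 1 listed gene is not reported here. R 4.3.3, Python 3.11.15, pandas 2.3.3 and scipy 1.17.1 were used.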

Additional observations from a re-analysis of the deposited data

Results flagged for a closer look

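Without the EACBE the flank share was lower than in WT from Eα and higher from TEAp and Trav17–CBE2. The log2 ratio of EACBE-/- to WT shares from Eα minus that from TEAp was -0.57, and from Eα minus that from Trav17–CBE2 was -0.48. Both had an exact permutation p of 0.005 (0.0075 adjusted over 3 pairs), taken against no genotype effect in either bait. All 3 EACBE-/- libraries lay below WT from Eα and above WT from TEAp and Trav17–CBE2.

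The ratio of DP to liver flank shares also took different values from different baits. The log2 ratio of DP to liver from Eα minus that from Trav17–CBE2 was -1.98, and from TEAp minus that from Trav17–CBE2 was -1.46 (exact permutation p = 0.01, 0.03 adjusted over 6 pairs). From Trav17–CBE2 minus that from INT2 it was 0.80 (exact permutation p = 0.02, adjusted 0.04). These p-values are against no cell type effect in either bait, and equal effects were not tested. Liver had 2 libraries per bait, and those of Trav17–CBE2 held 272 and 154 flank counts.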

How the results depend on the processing

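Precision was limited by depth, mainly in liver, by 2 or 3 libraries per group, and by repeated reads of the same fragment pair. Distinct pairs left 47 of 57 results unchanged. For shares, slopes, mirror ratios and partner shares, unchanged means only that the sign held. Their exact permutation p cannot go below 0.1, so it could not cross 0.05. For the differences between baits in the effect of genotype it means the same sign and side of 0.05. For counts of calls it means a change within a set fold. Leaving out pairs within a bin, the 25 kb exclusion and 25 or 100 kb windows turned the sign of none of 24, 3, 3 and 3 results. The causes of the changes given here were not tested.

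Called bins from Eα between genotypes numbered 2, with 1 under TMM, 4 with DESeq2, 1 with no filter and 19 with distinct pairs. From TEAp 24 bins became 37 and 5 windows became 8 with distinct pairs. From Trav17–CBE2 0 bins became 7 with DESeq2 and 2 with distinct pairs, and 2 windows became 0 under TMM, 4 with DESeq2 and 4 with distinct pairs. From Eα 50 bins called between cell types became 33 under TMM. Where no background share is given above, these counts and those below show only how far the calls moved. With distinct pairs, 5 partner differences turned sign, to 0.448 (Eα, INT), -0.342 (Eα, flank), -0.718 (TEAp, flank), 0.695 (Trav17–CBE2, proximal V) and -0.102 (Trav17–CBE2, Tcrd).

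The replicate block pairs same-numbered libraries, whose deviations correlated by -0.03 to 0.13 between genotypes and -0.09 to 0.05 between cell types, so the libraries share only a number. With the replicate block, called bins were 1 from Eα between genotypes and 23, 1, 0 and 7 from Eα, TEAp, Trav17–CBE2 and INT2 between cell types. The other 65 of 70 results were unchanged by the rules above. Paired permutation tests cannot go below p = 0.25 for 3 pairs or 0.5 for 2 pairs. For those results only a turn of sign could show.

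With 1 library left out, differences in flank share between genotypes ranged from -4.6 to -3.09 (Eα), 4.1 to 4.99 (TEAp) and 3.56 to 4.79 (Trav17–CBE2). Between baits, in an alternative chosen after seeing the data, the log2 differences ranged from -0.62 to -0.54 (Eα and TEAp), -0.53 to -0.44 (Eα and Trav17–CBE2) and 0.05 to 0.13 (TEAp and Trav17–CBE2). Called bins ranged from 0 to 5 for Eα and from 15 (without EACBE-/- replicate 2) to 26 for TEAp between genotypes, and between cell types from 4 to 57 (TEAp), 0 to 35 (Trav17–CBE2) and 1 to 25 (INT2). Directions turned only for differences that overlapped between groups. These were the mirror ratio from Trav17–CBE2 (-0.01 to 0.23, with -0.01 and 0.00 without EACBE-/- and WT replicate 3), the near-flank share between cell types from Trav17–CBE2 (-1.31 to 0.614), and partner shares. From Eα these ranged from -1.45 to 1.41 for proximal V (1.41 without EACBE-/- replicate 1, 0.501 without WT replicate 3), -0.498 to 0.537 for INT (0.537 without EACBE-/- replicate 1, 0.279 and 0.137 without WT replicates 1 and 2) and -2.83, without EACBE-/- replicate 1, to 3.97 for the flank. From TEAp they ranged from -0.157 to 0.22 for INT (-0.142 without WT replicate 2) and -0.611 to 0.0503 for Tcrd (0.0389 without EACBE-/- replicate 2), and from Trav17–CBE2 from -0.298 to 0.0203 for INT.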
